A study of Schizosaccharomyces pombe with 6 samples.

Results

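The *mug* (meiotically upregulated gene) and *meu* (meiotic expression upregulated) genes of the fission yeast *Schizosaccharomyces pombe* were named from screens for transcripts that become abundant when cells go through meiosis. The name says nothing of what the product does. Every gene of the deposited annotation whose name is *mug* or *meu* followed only by digits was taken, which gave 104 genes (84 *mug* and 20 *meu*) of the 6291 genes counted. The rule used the names alone and no measured value. By type, 101 were protein-coding genes and 3 were non-coding RNAs (*meu3*, *meu16* and *meu19*), and the annotation calls *mug116* and *mug155* dubious. Genes of the same screens that now carry a functional name were not members, and some of them appear in a separate list at the end.

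RNA was sequenced from 3 cultures of *nup211-so* cells grown with thiamine and 3 grown with no thiamine, all in EMM, a defined minimal medium. All 6 cultures were of the same h+ strain, which carries *nup211::P81nmt1* with a *ura4+* marker beside *ade6-M210*, *leu1-32* and *ura4-D18*, so that the thiamine-repressible promoter P81nmt stands in place of the *nup211* promoter. Nup211 is a nucleoporin of the nuclear basket with a role in mRNA export. Cells with thiamine were kept for 24 h in medium with 30 μM (10 μg/mL) thiamine, washed, and grown for 24 h more in fresh medium of the same kind. No strain with its own *nup211* promoter was analysed here with and without thiamine, so effects of thiamine and of the promoter shut-off cannot be told apart.

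Fission yeast cells normally enter meiosis only after nitrogen starvation and mating of an h+ with an h- cell. The HMG-box factor Ste11 opens the programme, Mei3 inactivates the Pat1 kinase in the zygote and so frees the RNA-binding protein Mei2, and the forkhead factor Mei4 later switches on a large group of middle meiotic genes through the FLEX promoter element. In dividing cells, meiotic transcripts that are made nonetheless are removed by Mmi1, a YTH-domain protein that binds repeats of a short RNA core and hands the transcript to the nuclear exosome. The question put to the data here was how transcripts with the *mug* and *meu* names stood in these mitotic h+ cultures, and how they differed between the libraries labelled thiamine and those with no thiamine.

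The libraries labelled thiamine held 37195197 to 48815139 counts and those with no thiamine 43629667 to 47036833, of which 24.6% to 46.3% and 41.2% to 49.0% fell on ribosomal RNA genes. With TMM scaling the targeted gene did not check the labels: *nup211* had 13.2, 11.5 and 12.1 CPM (counts scaled to a common library size by TMM) in the libraries labelled thiamine, against 12.4, 15.4 and 13.7 with no thiamine, a log2 fold change of -0.17 ± 0.11 (SE, adjusted p = 0.199). Scaled by upper-quartile factors it was called lower (-0.47, adjusted p = 0.00686). Scaled by library totals it was not called (0.40, adjusted p = 0.0851). Other counted genes cover 87.0% of its length. The study of this strain reports less Nup211 protein with thiamine by immunoblot, a measure of protein and not of RNA. *nmt1*, the native thiamine-repressed gene, had 0, 3 and 2 counts in the libraries labelled thiamine and 1631, 2061 and 1858 counts with no thiamine, although another counted gene covers its whole length. Markers of h- cells (6 of 7 found, none at 0) summed to 235 to 341 CPM in the libraries labelled thiamine and to 127 to 145 CPM with no thiamine, and those of h+ cells (4 of 4) summed to 98.3 to 111 and to 31.9 to 43.8 CPM. Markers of zygotes (4 genes, of which *dmc1* was nearly silent) overlapped between the groups at 52.8 to 74.9 and 51.9 to 68.7 CPM, and those of spores (*isp3* and *spo6*) stayed at 0.371 to 0.853 and 0.732 to 1.25 CPM. The zygote sum hides opposite moves. *mei3* averaged 17.1 CPM in the libraries labelled thiamine and 1.19 CPM with no thiamine (log2 3.84). *rec8* averaged 19.6 and 29.8 CPM (log2 -0.60, a call lost on library totals), and *mei4* was not called (-0.14). Single genes carried both mating type sums: *mam3* averaged 231 CPM in the libraries labelled thiamine and 61.6 CPM with no thiamine, and *map4* 97.0 and 23.1 CPM. The other markers were mixed. Of the h- markers *mfm1*, *mam3* and *sxa2* rose, *mam2* fell by 1.56 on the log2 scale, and *mfm2* (-1.15) and *mam1* (0.12) were not called, while of the h+ markers *map2* and *map4* rose, and *map1* and *map3* fell by 1.66 and 0.83, the second call being lost on library totals. The part of these markers in the results below was not tested.

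Most *mug* and *meu* transcripts were present at low levels. In such bulk samples a few cells with much of a transcript and many cells with little of it cannot be told apart. Over the 6 libraries the median level of the 104 genes was 2.21 CPM per kb of transcript, beside 16.5 CPM per kb over all counted protein-coding genes. The test needs a minimum of counts, and 85 of the 104 genes passed it. The other 19 had totals of only 5 to 46 counts over all libraries: *meu14*, *meu16*, *meu17*, *meu26*, *meu27*, *meu31*, *meu43*, *mug68*, *mug74*, *mug96*, *mug97*, *mug105*, *mug116*, *mug117*, *mug126*, *mug130*, *mug131*, *mug177* and *mug182*. They include the gene of the forespore membrane protein Meu14, the glucoamylase gene *meu17* and 2 of the 4 UPF0300 family genes (*meu27* and *mug131*). With no filter on low counts 3 of them were called higher, *meu27* (9, 11 and 4 counts in the libraries labelled thiamine, against 0, 0 and 2 with no thiamine), *mug96* (7, 8 and 22 against 3, 2 and 1) and *mug177* (10, 12 and 11 against 3, 2 and 4), at adjusted p of 0.0342, 0.0265 and 0.0500 (just under the threshold) in edgeR's test. DESeq2 called *meu27* and *mug96*. These counts are small and the 3 genes are not among the calls given below.

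The nearly silent members were mostly those that share their span with another gene. Of the 19 genes not tested, 18 had 50% or more of their length covered by another counted gene, and *mug96* was the exception with no overlap. Among all members 36.5% (38 genes) were overlapped to that extent, beside 21.3% of counted protein-coding genes. The median level of members was lower with more overlap, being 8.23 CPM per kb for the 36 genes with none, 5.52 for up to 50%, 0.518 for 50% to 95% and 0.0712 for 95% or more. Protein-coding genes as a whole showed the same order at higher levels, with 27.8, 22.8, 1.66 and 0.176 CPM per kb. Members were thus below protein-coding genes as a whole within each class of overlap. How the counting program treats a read that falls on overlapping genes is not given in the sources used here, so that low transcription and reads left uncounted cannot be told apart in the overlapped members.

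**Figure D1:**
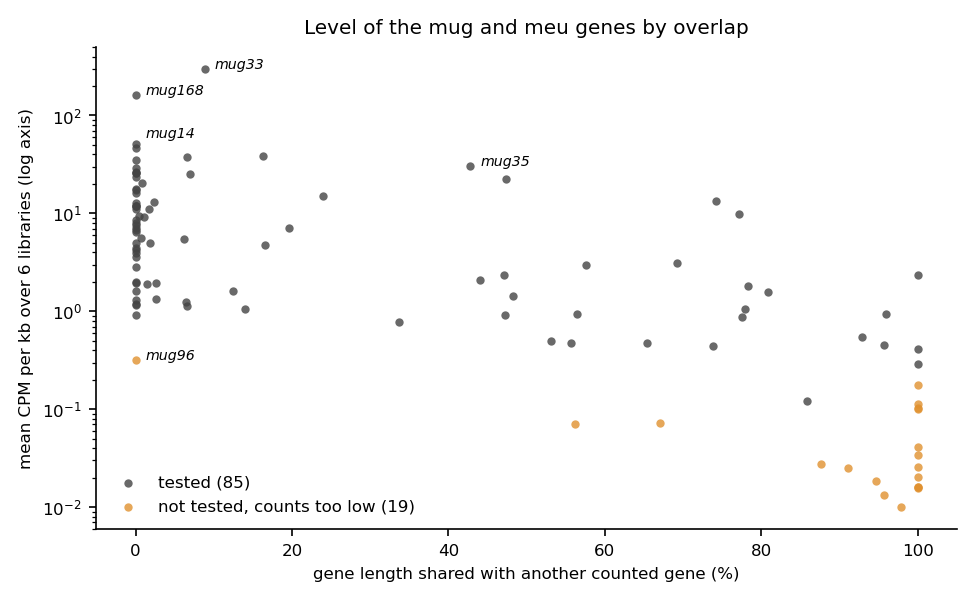
Mean level of each of the 104 *mug* and *meu* genes over the 6 libraries (vertical log axis, CPM per kb) against the share of the gene's length covered by another counted gene (horizontal axis, %), with 85 tested genes in grey and 19 untested ones in orange. The untested genes lie at the lower right, apart from *mug96*, and *mug33* stands highest at 299 CPM per kb.

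In the libraries labelled thiamine, 35 of the 85 tested members rose and 27 fell at an adjusted p under 0.05 in edgeR's quasi-likelihood test, and 23 did not pass. Together 72.9% were called, beside 69.8% of all 5434 tested genes. In percent, 41.2% of members rose, beside 34.5% of all tested genes, and 31.8% fell, beside 35.3% of all. A change of 2-fold or more was called for 20 members that rose (23.5%, all genes 16.4%) and 9 that fell (10.6%, all genes 13.6%). The median log2 fold change of the members was 0.20, beside -0.01 over all tested genes, and it was 0.11 without thiamine replicate 3. The 3 values of each group did not overlap for 67 members (78.8%, all genes 75.5%). These shares lie near those of all genes, in both directions. The split depends on the scaling, which shifts the median of all genes to 0.57 on library totals (47 members higher and 8 lower, all genes 50.1% and 10.8%) and to -0.31 on upper-quartile factors (23 higher and 34 lower, all genes 25.2% and 47.5%). Relative to that shift the members' median was 0.23 above all genes on library totals and 0.21 above on upper-quartile factors, as it was with TMM (0.21).

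The 13 tested *meu* genes had a higher median (0.67) than the 72 tested *mug* genes (0.14), with no test of the difference. Of the *meu* genes 7 rose (53.8%) and 4 fell (30.8%), and of the *mug* genes 28 rose (38.9%) and 23 fell (31.9%). Of all tested genes 34.5% rose and 35.3% fell. On library totals *meu* genes had 8 and 1 and *mug* genes 39 and 7. On upper-quartile factors *meu* genes had 6 and 4 and *mug* genes 17 and 30. Low counts left 35.0% of *meu* and 14.3% of *mug* genes untested. Members on chromosome II (21 tested) had 11 rises (52.4%) and 5 falls (23.8%), beside 33.4% and 36.4% of all tested genes of that chromosome. On library totals they had 13 and 1 (all genes 49.5% and 10.8%), and on upper-quartile factors 8 and 6 (all genes 23.9% and 49.1%). Those on chromosome I (42 tested) had 17 of each (40.5%), beside 35.4% and 34.6% of all. On library totals they had 21 and 7 (all genes 50.8% and 11.1%), and on upper-quartile factors 9 and 20 (all genes 25.5% and 46.3%). Those on chromosome III (22 tested) had 7 rises (31.8%) and 5 falls (22.7%), beside 34.9% and 35.1% of all. On library totals they had 13 and 0 (59.1% and 0%, all genes 49.5% and 10.3%). With upper-quartile factors they had 6 and 8 (27.3% and 36.4%, all genes 27.3% and 48.1%). No difference between chromosomes was tested, and neither group of names moved as a block.

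**Figure D2:**
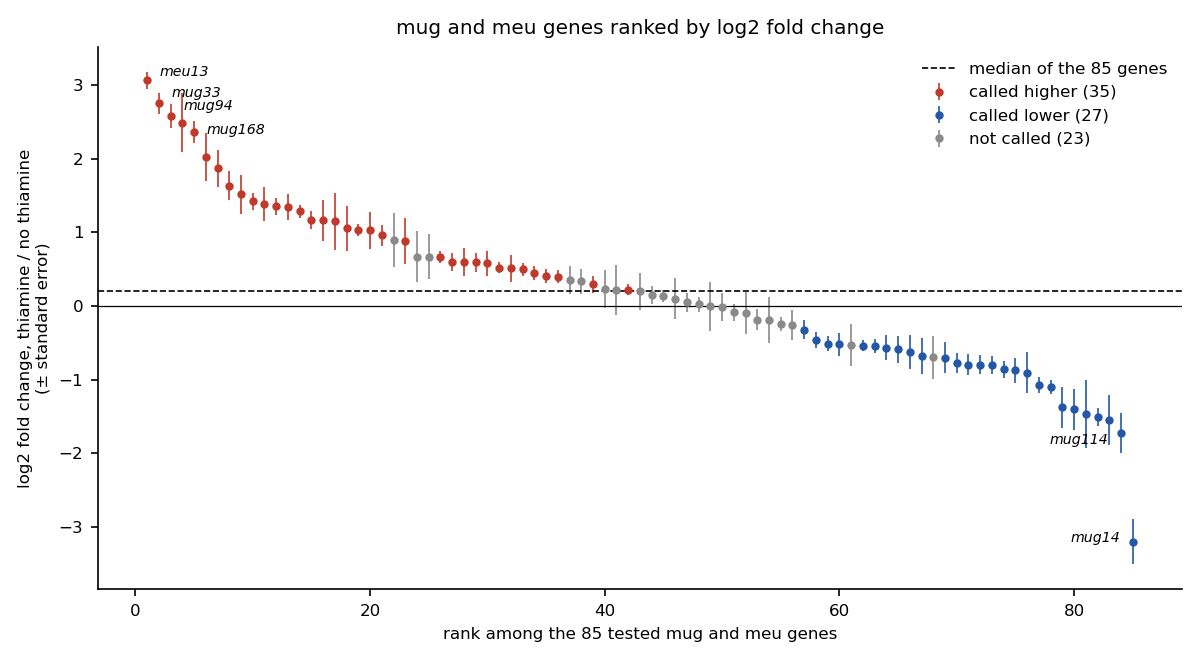
Log2 fold change (thiamine over no thiamine, points with ± standard error) of the 85 tested *mug* and *meu* genes, ranked, with called rises in red (35), called falls in blue (27) and genes not called in grey (23). *meu13* leads the rises at 3.06, and *mug14* at -3.21 lies apart from the other falls, of which the next is *mug114* at -1.73.

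The 5 members that the results turn on are *meu13*, *mug33*, *mug94* and *mug168*, which rose most among those with little or no overlap, and *mug14*, which fell most. The 250 bases before each gene's start in the deposited annotation are shown for them, read from RefSeq's ASM294v3 assembly 5′ to 3′ on the gene's strand, because 3 of them carry meiotic or cell-cycle promoter motifs and the other 2 carry none of those searched. Capitals mark GTAAACA or GTAAATA (FLEX, either strand) and ACGCGT (the MCB element of MBF, a factor of G1/S transcription, which also serves premeiotic S phase). Positions count from the gene's first base, which is 0. In *meu13*, *mug94* and *mug168* that base also starts the coding sequence, with no annotated untranslated leader before it. *mug14* has a leader of 165 bases and *mug33* one of 428 bases. The windows and positions are therefore not equivalent between genes.
meu13 promoter: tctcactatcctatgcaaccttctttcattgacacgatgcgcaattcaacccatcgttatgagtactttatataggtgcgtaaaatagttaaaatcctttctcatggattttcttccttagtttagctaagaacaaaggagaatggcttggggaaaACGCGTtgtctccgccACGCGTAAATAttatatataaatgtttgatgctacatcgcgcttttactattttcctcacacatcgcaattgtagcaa
mug94 promoter: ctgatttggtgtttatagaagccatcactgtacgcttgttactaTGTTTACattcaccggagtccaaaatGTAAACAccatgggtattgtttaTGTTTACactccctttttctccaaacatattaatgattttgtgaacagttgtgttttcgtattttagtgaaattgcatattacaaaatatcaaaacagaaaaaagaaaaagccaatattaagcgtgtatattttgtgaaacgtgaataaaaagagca
mug14 promoter: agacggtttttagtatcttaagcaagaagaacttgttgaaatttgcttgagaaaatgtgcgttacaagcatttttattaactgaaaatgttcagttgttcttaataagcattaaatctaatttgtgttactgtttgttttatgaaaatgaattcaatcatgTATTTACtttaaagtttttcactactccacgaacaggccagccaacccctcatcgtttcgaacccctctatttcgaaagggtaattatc
mug33 promoter: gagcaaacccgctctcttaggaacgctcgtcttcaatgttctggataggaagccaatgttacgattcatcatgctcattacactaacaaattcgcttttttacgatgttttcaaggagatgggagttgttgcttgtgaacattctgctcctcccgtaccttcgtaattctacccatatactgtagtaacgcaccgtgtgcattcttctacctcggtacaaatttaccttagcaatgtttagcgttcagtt
mug168 promoter: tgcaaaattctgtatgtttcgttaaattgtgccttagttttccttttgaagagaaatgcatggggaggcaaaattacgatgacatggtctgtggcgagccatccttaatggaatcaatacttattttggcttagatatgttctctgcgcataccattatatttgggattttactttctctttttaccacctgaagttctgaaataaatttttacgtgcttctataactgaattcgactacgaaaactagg
These windows are chrI:977459-977708 (plus strand) for *meu13*, chrI:1218888-1219137 (minus strand) for *mug94*, chrII:128410-128659 (plus) for *mug14*, chrIII:2047258-2047507 (plus) for *mug33* and chrII:211261-211510 (plus) for *mug168*. In *meu13* ACGCGT begins at -94 and -78, and the second copy overlaps a GTAAATA that begins at -74. In *mug94* the FLEX letters occur 3 times, from -206, -180 and -157. In *mug14* they occur once, from -89.

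*meu13* (chromosome I, 977709 to 978637, plus strand) encodes a Hop2-type protein that helps homologous chromosomes pair and recombine in meiosis. It had 19.4, 18.9 and 22.0 CPM in the libraries labelled thiamine, against 2.42, 2.22 and 2.58 CPM with no thiamine. All 3 libraries labelled thiamine stood far above all 3 with no thiamine, and within each group the values were close. The log2 fold change was 3.06 ± 0.12 (SE), an 8.35-fold rise (adjusted p = 3.01e-07), and 70 of the 5434 tested genes rose more. No other counted gene overlaps *meu13*.

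*mug33* (chromosome III, 2047508 to 2049286, plus strand) encodes a claudin-family protein of the plasma membrane that interacts with the cell-end marker Tea1. It had 809, 881 and 1089 CPM in the libraries labelled thiamine, against 144, 130 and 139 CPM with no thiamine. Per kb of transcript it averaged 521 CPM in the libraries labelled thiamine, the highest of the members there, and 77.3 CPM with no thiamine, where *mug14* was higher. Its log2 fold change was 2.75 ± 0.14 (SE, adjusted p = 1.04e-06). Much of the summed level of the class was this gene. All members together summed to 2214, 2256 and 2595 CPM in the libraries labelled thiamine and to 1392, 1282 and 1358 CPM with no thiamine, of which *mug33* made up 36.6% to 42.0% and 10.1% to 10.3%. Without *mug33* the sums were 1404, 1375 and 1506 CPM against 1248, 1152 and 1220 CPM, which still did not overlap but differed far less. All these sums are with TMM scaling only. Other scalings shift the median of all genes to 0.57 (library totals) or -0.31 (upper-quartile factors). The sums still include *mug168*, which averaged 156 CPM in the libraries labelled thiamine and 30.4 CPM with no thiamine, and *mug14*, which averaged 10.8 and 99.7 CPM.

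*mug94* (chromosome I, 1218321 to 1218887, minus strand) encodes a protein known only in *S. pombe*. It had 6.98, 8.28 and 7.95 CPM in the libraries labelled thiamine, against 1.17, 1.52 and 1.19 CPM with no thiamine, a log2 fold change of 2.58 ± 0.16 (SE, adjusted p = 2.89e-06). *mug168* (chromosome II, 211511 to 212091, plus strand) encodes a protein specific to the genus. It had 143, 130 and 196 CPM in the libraries labelled thiamine, against 31.3, 29.5 and 30.6 CPM with no thiamine, and rose 5.14-fold (log2 2.36 ± 0.15, adjusted p = 2.83e-06). Per kb it averaged 269 CPM in the libraries labelled thiamine, next after *mug33*, and 52.4 CPM with no thiamine, where *mug14*, *mug33* and *mug65* were higher. Unlike those genes *mug168* has no annotated leader, so levels per kb are not fully equivalent between them. Thiamine replicate 3 was its highest library, and without that library its log2 fold change was 2.16.

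*mug14* (chromosome II, 128660 to 129742, plus strand) encodes an adducin, a protein of the actin cytoskeleton. It had 11.2, 13.8 and 7.45 CPM in the libraries labelled thiamine, against 100.5, 63.5 and 135 CPM with no thiamine. Every library labelled thiamine was below every library with no thiamine, and the spread with no thiamine was wide (99.7 ± 35.8, SD, n = 3). The log2 fold change was -3.21 ± 0.31 (SE, adjusted p = 2.60e-05), and 30 tested genes fell more. Per kb it averaged 9.99 CPM in the libraries labelled thiamine and 92.1 CPM with no thiamine, where it was the highest of the members. No counted gene overlaps it.

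**Figure D3:**
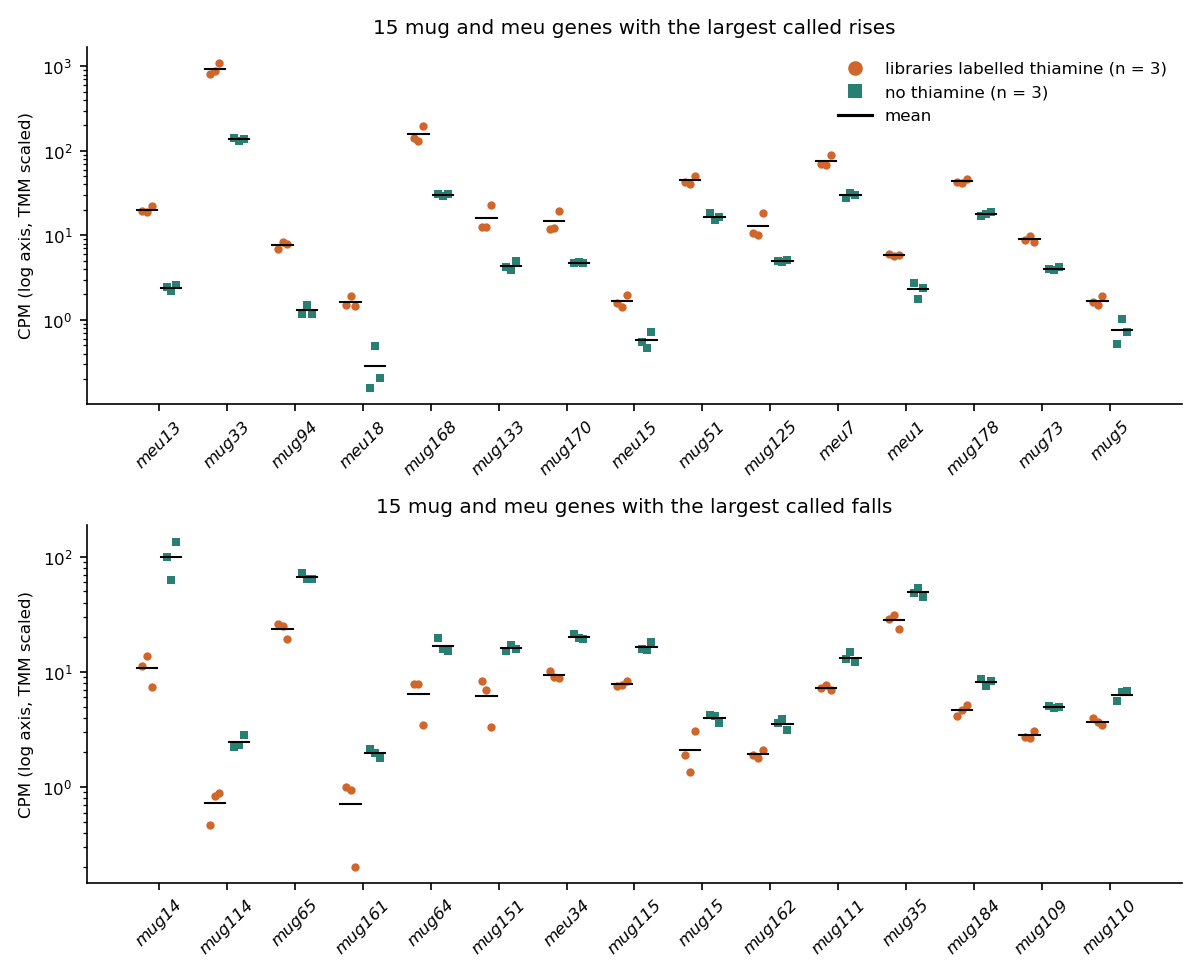
CPM of each library (vertical log axis, TMM scaled) for the 15 members with the largest called rises (upper panel) and the 15 with the largest called falls (lower panel) leaving out members whose average log2 CPM was below 0 or whose groups overlapped, with the 3 libraries labelled thiamine as orange circles left of the 3 with no thiamine as green squares, and a black line at each mean. The circles lie above the squares for each gene of the upper panel and below them for each gene of the lower panel, and the gap is widest for *meu13* and *mug14*.

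Thiamine replicate 3 stood apart from replicates 1 and 2 in several members. A chi-square of the counts per gene was 8.97 between thiamine replicates 1 and 2 but 246 and 266 between them and replicate 3, whereas it was 25.3 to 37.6 between the libraries with no thiamine. In 7 members replicate 3 was at least 1.5 times the mean of replicates 1 and 2, and in 7 it was lower by that factor, together 16.5% of the tested members, beside 15.3% of all tested genes. *mug133*, of the UPF0300 family, had 12.5, 12.7 and 22.9 CPM in the libraries labelled thiamine, against 4.22, 3.90 and 5.03 CPM with no thiamine. *mug125*, a genus-specific gene, had 10.6, 10.1 and 18.4 CPM against 4.97, 4.86 and 5.15 CPM with no thiamine. *mug151*, which encodes a subunit of the Rpd3L histone deacetylase complex, had 8.30, 6.95 and 3.32 CPM in the libraries labelled thiamine, against 15.3, 17.1 and 15.7 CPM. In all 3 genes replicates 1 and 2 already lay outside the range of the other group. Without thiamine replicate 3 their log2 fold changes were 1.51, 1.03 and -1.09, beside 1.87, 1.38 and -1.38 with it, and each kept its call. The splicing factor gene *mug161* was lowest in replicate 3 relative to the others, with 1.01, 0.937 and 0.204 CPM in the libraries labelled thiamine. Without replicate 3 *mug161*, *mug64* and *mug170* had log2 fold changes of -1.03, -1.12 and 1.35, beside -1.47, -1.41 and 1.63 with it. These 3 kept their calls too.

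Grouped by the known or annotated role of the product, no larger group moved only one way. The counts of each group stand beside 34.5% of all tested genes that rose and 35.3% that fell. Those shares were 50.1% and 10.8% on library totals and 25.2% and 47.5% on upper-quartile factors. No group was tested against all genes. The largest group, with 16 tested genes of the cell surface, membranes and trafficking, had 8 rises and 6 falls (9 and 2 on library totals, 5 and 7 on upper-quartile factors). Besides *mug33*, the arrestin-type adaptor *mug170* rose by 1.63 ± 0.20 (log2, SE) and the seven-pass membrane protein gene *mug73* by 1.17 ± 0.12. *mug73* had 8.89, 9.76 and 8.40 CPM in the libraries labelled thiamine, against 4.01, 3.84 and 4.20 CPM with no thiamine. Smaller rises, of which those of *mug89*, *mug84* and *meu29* are lost on upper-quartile factors, were called for the amino acid transporter gene *meu22* (1.05, a call just lost without no thiamine replicate 1, adjusted p = 0.0500), the flippase subunit gene *mug89* (0.59), the PX-domain gene *mug122* (0.52), the GPI anchor synthesis gene *mug84* (0.44) and the calcium transport factor gene *meu29* (0.22, but -0.08 on upper-quartile factors, and adjusted p of 0.0919 to 0.112 without any one of thiamine replicates 1 and 2 and no thiamine replicates 2 and 3).

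Among the falls of this group, the dysferlin-like gene *mug65* had 26.3, 25.1 and 19.4 CPM in the libraries labelled thiamine, against 72.9, 64.0 and 64.4 CPM with no thiamine (log2 -1.51 ± 0.12, adjusted p = 1.09e-05). *mug64*, for a Golgi protein with a BAR domain, fell by 1.41 ± 0.28 on the log2 scale, and 77.1% of its length is shared with an antisense RNA gene that fell too. The transporter gene *mug111*, the exocytosis-associated DNAJ gene *mug184* and the Rab-binding gene *mug109* fell by 0.86, 0.80 and 0.80, calls that are lost on library totals. The acetate transporter gene *mug86* had -0.54, which became 0.04 on library totals. The UNC-50 family gene *mug16* (-0.19) and the fasciclin-domain gene *mug57* (0.05) were not called.

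Genes of the nucleus, of chromatin, RNA and protein turnover (10 tested) had 4 rises and 5 falls, with the same counts on upper-quartile factors and 4 and 3 on library totals. The kinase-related gene *mug51* had 42.6, 40.7 and 50.8 CPM in the libraries labelled thiamine, against 18.5, 15.1 and 16.4 CPM with no thiamine, a rise of 1.42 ± 0.12 on the log2 scale. The BRCT-domain gene *mug176* rose by 1.03 and the RNA-binding protein gene *mug24* by 0.96. Besides *mug151*, the RING-type ubiquitin ligase gene *meu34* fell, with 10.2, 8.99 and 8.79 CPM in the libraries labelled thiamine against 21.2, 19.6 and 19.4 CPM with no thiamine (log2 -1.10 ± 0.10). The histone chaperone gene *mug183* (-0.47) and the Clr6 complex gene *mug165* (-0.33) fell less, and both values turn positive on library totals (0.10 and 0.25). The call of *mug165* is also lost without any one of thiamine replicates 1 and 2 and no thiamine replicates 1 and 2 (adjusted p = 0.0611 to 0.165). *mug30*, for a HECT-type ubiquitin ligase found with the TRAMP complex, had a log2 fold change of -0.01 ± 0.19 and was not called.

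Genes whose products act on meiotic chromosomes or on spores were few and mixed. Besides *meu13*, *mug5*, for a dynactin subunit, had 1.64, 1.50 and 1.93 CPM in the libraries labelled thiamine, against 0.521, 1.02 and 0.723 CPM with no thiamine (log2 1.16 ± 0.28, adjusted p = 0.00552). *mug20*, for a protein of the linear elements on which meiotic recombination takes place, had 0.842, 1.04 and 1.24 CPM against 0.859, 0.967 and 0.897 CPM, which overlap, and was not called (0.20 ± 0.25). The spore wall assembly gene *mug56* rose by 0.49 ± 0.08, and *meu10*, for a cell surface protein of the ascospore wall, fell with 0.246, 0.416 and 0.204 CPM in the libraries labelled thiamine, against 0.938, 0.810 and 0.781 CPM. *meu10* is thus near the lower limit of the test, its call is lost on library totals (-0.98, adjusted p = 0.0707), and 85.8% of its length is shared with other counted genes. The rise of *mug56* is lost with the trends of length and GC content removed (-0.07).

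Of 5 tested genes for carbohydrate-active and other metabolic enzymes, 2 rose and none fell (4 and 0 on library totals, 1 and 1 on upper-quartile factors). The alpha-amylase homologue *meu7* had 70.1, 68.6 and 89.0 CPM in the libraries labelled thiamine, against 27.8, 31.3 and 29.8 CPM with no thiamine (log2 1.36 ± 0.12), and the mannanase gene *mug191* rose by 0.59, a call lost on upper-quartile factors. The mannosidase gene *mug157* (0.02) and the oxidoreductase gene *mug72* (0.13) were not called. Of the UPF0300 and DUF1773 families, whose function is not known, 3 of 5 tested genes rose (*mug133*, *mug132* at 0.58 and *mug2* at 0.89) and *meu23* fell by 0.52, a value of 0.06 on library totals. On upper-quartile factors 1 of the 5 rose, and *mug2* is not called without any one of thiamine replicates 1 and 2 and no thiamine replicates 1 and 3 (adjusted p = 0.0726 to 0.0977).

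The 3 tested genes of the mitochondrion had 2 rises and 1 fall (2 and 0 on library totals, 1 and 1 on upper-quartile factors). They were led by *mug178*, for a mitochondrial ribosomal protein. It had 43.0, 41.5 and 46.6 CPM in the libraries labelled thiamine, against 17.0, 18.1 and 18.7 CPM with no thiamine, and rose by 1.28 ± 0.08 on the log2 scale. The division site gene *mug8* had 119, 116 and 127 CPM in the libraries labelled thiamine and 117, 88.4 and 90.1 CPM with no thiamine. It was the only called member whose groups overlapped (0.29 ± 0.12, adjusted p = 0.0472), and it is no rise on upper-quartile factors (-0.0023). Its call is lost without any one library other than no thiamine replicate 1 (adjusted p = 0.0617 to 0.179).

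**Figure D4:**
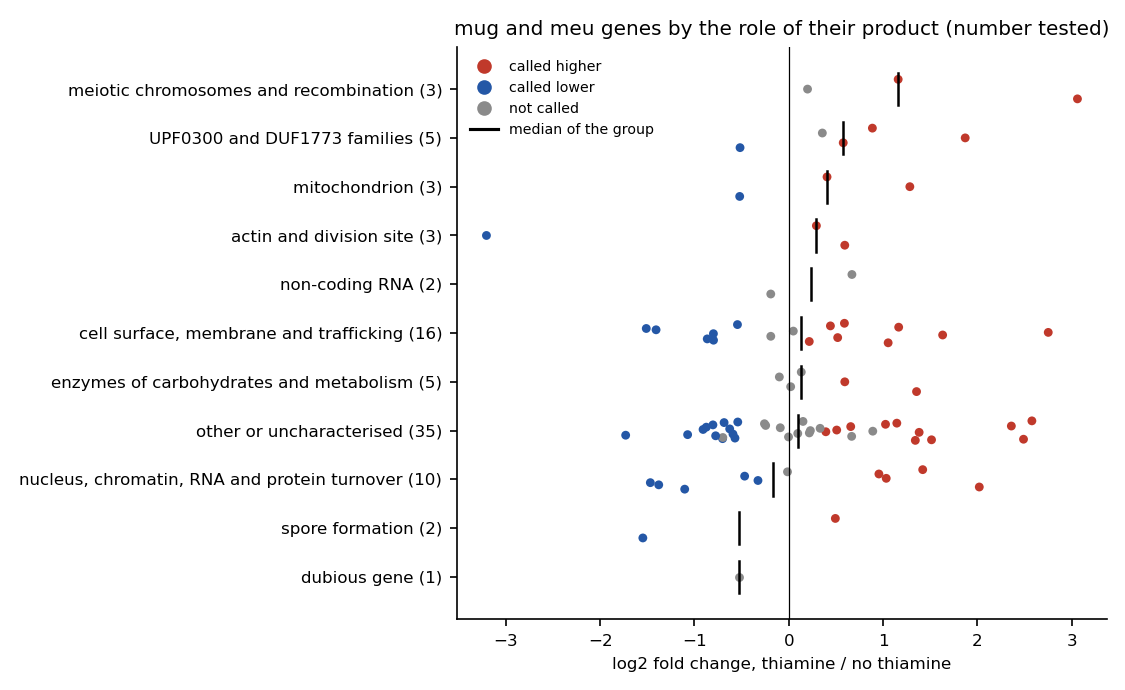
Log2 fold change (thiamine over no thiamine) of the 85 tested members by the role of their product, with the number tested in brackets, called rises in red, called falls in blue, genes not called in grey, and a black line at each group's median. The groups of 10 or more genes spread to both sides of 0, and *mug14* is the point at -3.21 among actin and division site genes.

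The 35 tested members with an uncharacterised product or one of no other group had 11 rises, 12 falls and 12 genes not called (18 and 2 on library totals, 8 and 16 on upper-quartile factors). Besides *mug94* and *mug168*, *meu18* had 1.52, 1.89 and 1.46 CPM in the libraries labelled thiamine, against 0.156, 0.497 and 0.203 CPM with no thiamine, and rose by 2.49 ± 0.40 on the log2 scale, or by 3.16 without no thiamine replicate 2, its highest library of that group. An antisense RNA gene covers 92.9% of *meu18* and was not called (0.30). *meu15* had 1.58, 1.44 and 1.95 CPM in the libraries labelled thiamine, against 0.547, 0.471 and 0.723 CPM with no thiamine (log2 1.51 ± 0.26). *meu1* rose by 1.34 ± 0.18, while *cgr1* on the other strand, which shares 74.2% of the length of *meu1*, fell by 1.09.

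Of the genes of this set that fell, *mug114* had 0.472, 0.833 and 0.890 CPM in the libraries labelled thiamine, against 2.21, 2.30 and 2.81 CPM with no thiamine (log2 -1.73 ± 0.27). The hexokinase gene *hxk2* overlaps 33.7% of it on the other strand, averaged 540 CPM in the libraries labelled thiamine and 1947 CPM with no thiamine, and fell by 1.85. *mug115* fell by 1.07 ± 0.11, beside an overlapping gene that fell by 1.17. *mug35* had 29.1, 31.5 and 23.7 CPM in the libraries labelled thiamine, against 48.9, 53.7 and 44.4 CPM with no thiamine (-0.80 ± 0.12, a call lost on library totals), and *tfg3* on the other strand fell by 0.79. The splicing factor gene *mug161*, which has a role, is of the same kind. It fell by 1.47 ± 0.46, or by 1.03 without thiamine replicate 3, while the gene that covers most of it rose by 0.64. Overlapping partners thus moved with some members and against others, and whether reads were counted by strand is not given in the sources used here.

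The remaining large falls were *mug15* (-0.91 ± 0.28), *mug162* (-0.87 ± 0.17) and *mug110* (-0.77 ± 0.14), and all 3 calls are lost on library totals (-0.31, -0.30 and -0.20). *mug15* had 1.89, 1.35 and 3.10 CPM in the libraries labelled thiamine, against 4.19, 4.13 and 3.62 CPM with no thiamine. Thiamine replicate 3 was its highest library of that group, and the call is lost without either no thiamine replicate 1 (adjusted p = 0.0577) or replicate 2 (adjusted p = 0.0506), and with the trends of length and GC content removed (adjusted p = 0.0545). *mug161* loses its call without no thiamine replicate 1 (adjusted p = 0.0639).

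Both tested non-coding RNAs were rare and not called. *meu3* had 0.657, 0.978 and 0.908 CPM in the libraries labelled thiamine, against 0.313, 0.680 and 0.608 CPM with no thiamine, which overlap. *meu19* had 0.698, 0.874 and 0.908 CPM against 0.625, 1.25 and 0.955 CPM. The pair are near-identical copies toward the opposite ends of chromosome III, 98.4% identical over 505 to 508 bp, so that a read may not tell the copies apart and neither value is certain.

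Promoter letters known for Mei4 were common before these genes, whichever way the transcript moved. GTAAACA or GTAAATA, on either strand, lay within 250 bases before to 50 bases after the start of 50 of 101 protein-coding members (49.5%), beside 1548 of 5039 protein-coding genes (30.7%). The windows of both sets were alike in A and T content (medians 67.7% and 68.0%). Members that rose had the motif in 16 of 35 cases (45.7%) and those that fell in 12 of 27 (44.4%), and the median log2 fold change was 0.20 for the 39 tested members with it and 0.19 for the 44 without it. Of the members printed above, *meu13*, *mug94* and *mug14* have the letters and moved in opposite directions, while *mug33* and *mug168* rose and have none in the printed window. A match of letters is a description and not evidence of binding.

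**Figure D5:**
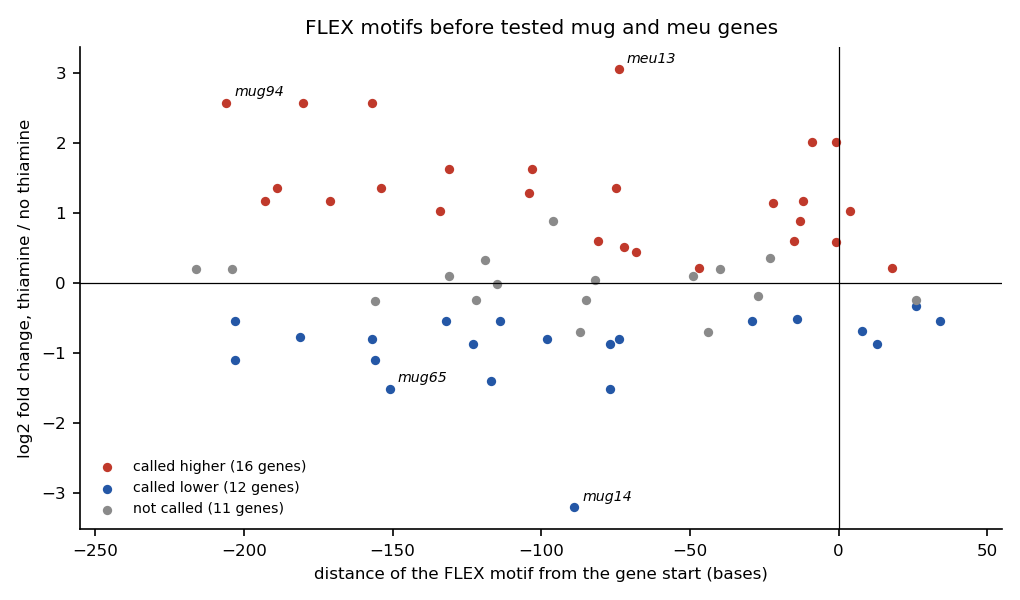
Log2 fold change (thiamine over no thiamine, vertical axis) of tested members against the distance of each FLEX match from the gene start (horizontal axis, bases), 1 point per match, with called rises in red (16 genes), called falls in blue (12) and genes not called in grey (11). Rises and falls are spread over the same distances, and *mug94* appears at 3 of them. Genes with no annotated leader start at their coding sequence, so distances are not equivalent between genes.

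The other promoter motifs searched were found before few members, and no share was tested. TTCTTTGTT, the core of the TR box bound by Ste11, occurred on either strand in 2 members (*mug99* and *mug113*, 1.98%) and in 1.94% of all protein-coding genes. TGACGT, the core of the CRE bound by the stress factor Atf1, occurred in 5 members (4.95%) and in 5.81% of all. ACGCGT occurred in 4 members (*meu13*, *meu26*, *mug15* and *mug20*, 3.96%) and in 3.06% of all. TTAAAC, the DNA letters of the core read by Mmi1, was searched within the genes and occurred at least once on the sense strand of 53 members (52.5%), beside 55.3% of all, with medians of 0.302 and 0.321 copies per kb. *mug45* had the most copies (5) and fell by 0.69, a call lost on library totals and without no thiamine replicate 1 (adjusted p = 0.137) or replicate 3 (adjusted p = 0.0566). *meu13*, which rose most, had the most per kb (3 copies, 3.23 per kb). Of the next tested members, *mug10* (2.97 per kb) rose by 0.59, a call lost on upper-quartile factors, and *mug9* (2.93) was not called. *mug109* (2.28) and *mug15* (2.06) fell by 0.80 and 0.91, calls lost on library totals. The core occurred in 18 of 35 members that rose and 14 of 27 that fell. Over all protein-coding genes it occurred in 1014 of 1691 that rose and 882 of 1730 that fell. No link of the core to these changes was tested.

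Genes of meiosis and sporulation that carry other names gave a further view of the same programme. Of 43 such genes found, 26 were tested, 5 rose and 9 fell, with a median log2 fold change of -0.26 (10 and 3, median 0.33, on library totals and 4 and 14, median -0.56, on upper-quartile factors). In percent 19.2% rose and 34.6% fell, beside 34.5% and 35.3% of all tested genes. The median of all tested genes was -0.01, or 0.57 on library totals and -0.31 on upper-quartile factors. The difference was not tested. *mei3*, for the inhibitor of Pat1, had 13.4, 14.9 and 23.0 CPM in the libraries labelled thiamine, against 1.48, 1.15 and 0.926 CPM with no thiamine (log2 3.84 ± 0.26). *mei2*, for the RNA-binding protein downstream of it, moved the other way, with 5.47 to 7.74 CPM in the libraries labelled thiamine, against 46.6 to 51.9 CPM with no thiamine (-2.89 ± 0.13). The linear element gene *rec10* rose by 1.50 and the forespore membrane gene *spo3* by 1.29, while *ssm4*, for a protein of meiotic nuclear movement, fell by 2.11 and the meiotic cohesin gene *rec11* by 1.37. *mei4* itself was not called (-0.14), but was called higher on library totals (0.45, adjusted p = 0.0429) and lower on upper-quartile factors (-0.44, adjusted p = 0.0465).

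Of 13 genes of the Mmi1 system, which include partners, the exosome and an RNA that holds Mmi1 back, 5 rose and 2 fell (median 0.09), with 8 and 0 on library totals and 3 and 5 on upper-quartile factors. That RNA, *sme2*, which keeps Mmi1 in a nuclear dot during meiosis, had 47.6 CPM on average in the libraries labelled thiamine and 7.25 CPM with no thiamine (log2 2.72 ± 0.23). The exosome nuclease genes *rrp6* (1.29) and *dis3* (0.64) and *mmi1* (0.45, a call lost on upper-quartile factors) rose, and *erh1*, for a partner of Mmi1, fell by 0.76, a call lost on library totals. Of 15 core stress genes, 8 rose and 5 fell (median 0.39), with 9 and 2 on library totals and 5 and 6 on upper-quartile factors. Among them the stress factor gene *atf1* rose by 2.78. The 5 that fell were *rds1* (-1.79), *hsp104* (-1.21), *gpd1* (-0.89), *ctt1* (-0.87) and *tps1* (-0.86). The calls of *gpd1*, *ctt1* and *tps1* are lost on library totals. In percent 38.5% of the Mmi1 list rose and 15.4% fell, and 53.3% and 33.3% of the stress list. Of all tested genes 34.5% rose and 35.3% fell. Those shares were 50.1% and 10.8% on library totals and 25.2% and 47.5% on upper-quartile factors. Neither list was tested against all genes.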

How the data were processed

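Counts of reads per gene in 6 libraries, 3 with thiamine and 3 with no thiamine, were used as the authors deposited them, without normalization. The submitters' processing notes name STAR and DESeq2. The versions, the counting program, its strand setting and the build are not given in the sources used here. The kit was stranded and took poly(A) RNA. Gene names, types, positions and transcript lengths in bp (other values) came from a second deposited table. The columns of that table with the authors' own comparison were not used, and 0 other columns were left over. The labels call the libraries of a group biological replicates.

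The 6291 genes were tested with edgeR 4.0.16 (R 4.3.3): TMM scaling, filterByExpr (minimum count 10), robust quasi-likelihood F test, two-sided, Benjamini-Hochberg adjustment over the 5434 genes kept, called at an adjusted p under 0.05. CPM are counts after TMM scaling to a library size of 1e+06. Overlap and sequences were taken with the ASM294v3 assembly, where 99.984% of genes matched by ID overlapped their deposited position. Copies were searched with blastn 2.17.0 (95% identity, 100 bp). The fit was tested on simulated data. Alternatives were DESeq2 1.42.0, library totals, upper-quartile factors, ribosomal RNA genes removed, no filter, a replicate block, each library left out, overlapped members left out and, chosen after seeing the data, loess trends with gene length and GC content removed.

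The members and gene lists were chosen with earlier results of these data known. Genes named are, among called members whose average log2 CPM was 0 or more and whose groups did not overlap, the 15 largest rises and 15 largest falls, the 5 highest levels per kb, untested members, neighbours, members with a known or annotated role and the lists, to which overlapping genes were added after their values were seen. *meu10*, *meu22*, *mug2* and *mug45* are named under their role or motif. The split by FLEX and by introns was chosen after seeing the data. Protein sequences were not used here.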

Additional observations from a re-analysis of the deposited data

How the results depend on the processing

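Of the 32 members named by size of change or level, 416 values were recomputed under the alternatives: 396 kept their direction and side of the threshold, 19 kept only the direction, and *mug8* reversed on upper-quartile factors (-0.0023). With library totals 8 members fell and the median log2 fold change was 0.80. With upper-quartile factors 23 rose and the median was -0.10. Of the 62 called members, 6 had the opposite sign on library totals (*meu23*, *mug163*, *mug165*, *mug183*, *mug70* and *mug86*), 2 on upper-quartile factors (*meu29* and *mug8*) and 1 (*mug56*) with the length and GC content trends removed, and none had under the others. Leaving out 1 library at a time gave 30 to 33 rises, 21 to 28 falls and a median of 0.11 to 0.29, the lowest without thiamine replicate 3. DESeq2 gave 37 rises and 25 falls and no filter 38 and 26, both of 104 members, so these counts are not equivalent to those of 85. Of 85 members, ribosomal RNA genes removed gave 34 and 28, and trends removed 33 and 26. No share of all genes is given here for these alternatives. Members with under 50% overlap had 29 and 21 of 65 (44.6% and 32.3%). Of tested protein-coding genes with under 50% overlap 38.6% rose and 38.4% fell. With the replicate number as a block, 33 rose and 26 fell (median 0.18). Deviations of same-numbered libraries from their group means correlated with r of -0.005, 0.086 and -0.028, and those of other pairs with -0.090 to 0.067. Deviations from a mean of 3 libraries are tied to one another, so these values cannot decide whether same-numbered cultures were paired. At these depths 54 of the 104 members had 100 counts or more in every library, and the 19 untested members had at most 22 counts in a library. Of these 19, 3 were called with no filter and 2 by DESeq2, which left 6 of them without an adjusted p.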

Other observations

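Introns divided the members much as they divided all genes with a coding sequence. The 27 tested members with at least 1 intron in their coding sequence had a median log2 fold change of -0.19 (8 rose, 29.6%, and 11 fell, 40.7%), and the 56 without introns had 0.38 (27 rose, 48.2%, and 16 fell, 28.6%). Over all tested genes with a coding sequence the medians were -0.18 for 2217 genes with introns (27.5% rose and 42.9% fell) and 0.16 for 2520 without (42.9% rose and 31.0% fell). The split was looked at after the values were seen and no difference between the sets was tested. It is given with TMM scaling only.

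Of 9 pairs of members that lie close together, 2 had both members tested. *mug184* and *mug89*, on the same strand of chromosome II with 1 counted gene between them, had log2 fold changes of -0.80 and 0.59. *mug42* and *mug160*, on chromosome III with 1 counted gene between them, had 1.15 and -0.09. *mug160* was not called, and the call of *mug42* is lost on upper-quartile factors (adjusted p = 0.0767) and without any one of replicates 1 and 2 of either group (adjusted p = 0.0666 to 0.0930). *mug105* ends 194 bp before *meu29* and was nearly silent, with at most 0.365 CPM in a library, while *meu29* had 29.8 to 31.4 CPM in the libraries labelled thiamine and 25.8 to 27.6 CPM with no thiamine. *mug86* overlaps the dubious gene *mug116* on the same strand, fell by 0.54 and had 13.0 to 13.3 CPM in the libraries labelled thiamine and 18.1 to 20.9 CPM with no thiamine, whereas *mug116* had at most 0.0624 CPM. *mug113*, a nuclease-family gene that lies wholly within another gene's span, had 0.883, 0.957 and 1.02 CPM in the libraries labelled thiamine and 0.260, 0.288 and 0.145 CPM with no thiamine (log2 2.02), while its partner *gsa1* on the other strand fell by 0.63.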
